A study of Mus musculus with 4 samples.

Results

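The barcodes described here are those in which mitochondrial transcripts made up 50% or more of the unique molecular identifiers (UMIs), among barcodes with at least 200 detected genes, in single-cell RNA-Seq of whole mouse kidneys. They were chosen by their measured mitochondrial share, and they are the barcodes that the 50% limit in the methods takes out before any cell type is named. Of 54175 barcodes with at least 200 genes, 18431 (34.0%) met the rule and are called members, and the 35744 others had under 50%. All values of the mitochondrial share are therefore a description of the choice, and no test was made on them.

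The study asked how the kidney responds to a high-fat diet (HFD) with and without the sodium-glucose cotransporter SGLT2. Male mice of the C3H strain (C3H/HeJ in the methods) were wild type (WT) or homozygous for Sweet Pee (SP), a missense change in the SGLT2 gene Slc5a2 that leaves no functional protein. Feeding began at 10 weeks of age and lasted 8 weeks, on normal diet (ND) or on HFD with 60% of calories from fat, and kidneys were taken at 18 weeks and digested with enzymes to single cells. Each of the 4 conditions has 1 library, named by genotype and diet (WT-ND for a wild type on normal diet, SP-HFD for a mutant on high-fat diet). Where 4 values stand in a row, WT-ND comes first, then WT-HFD, then SP-ND and last SP-HFD. With 1 library each, a condition cannot be told apart from its mouse and preparation, no p-value is given, and the 95% intervals cover counting error only.

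Mitochondria carry a small genome that encodes subunits of the respiratory chain and the ATP synthase, and its transcripts stay inside the organelle. A cell whose outer membrane has been broken can lose cytoplasmic RNA while it keeps organelles and nucleus, which is why a high mitochondrial share is used as a filter. The kidney complicates this use, because the proximal tubule (PT), which takes back most of the filtered sodium and glucose, and the thick ascending limb (TAL), which dilutes the urine, are among the most mitochondria-rich epithelia of the body.

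Members numbered 5000 of 16022 barcodes in WT-ND (31.2%, Clopper-Pearson 30.5 to 31.9). WT-HFD had 3700 of 13715 (27.0%, 26.2 to 27.7). Among the mutants, SP-ND had 5580 of 12633 (44.2%, 43.3 to 45.0), while SP-HFD had 4151 of 11805 (35.2%, 34.3 to 36.0). Thus both SP libraries lost a larger share than both WT libraries, and in each genotype the ND library lost more than the HFD library. The order of the WT libraries rests on the minimum of 200 genes: without it the shares were 32.7%, 33.2%, 49.8% and 42.1%, with WT-HFD above WT-ND. In the plot of the mitochondrial share, most barcodes lay under 50%, and all 4 libraries had a second rise, the smallest in WT-HFD. WT-ND went from 1.07% of its barcodes in the bin from 66% to 68% to 2.25% at 80% to 82%, and SP-HFD from 1.13% at 60% to 62% to 2.12% at 86% to 88%. SP-ND reached 3.13% at 92% to 94%, and WT-HFD went from 0.860% at 68% to 70% to 1.32% at 82% to 84%. Barcodes at 90% or more made up 1.50%, 3.03%, 9.02% and 4.54% of the libraries. In all, 379 barcode sequences occurred in more than 1 library, 39 of them among members of more than 1 library.

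**Figure D1:**
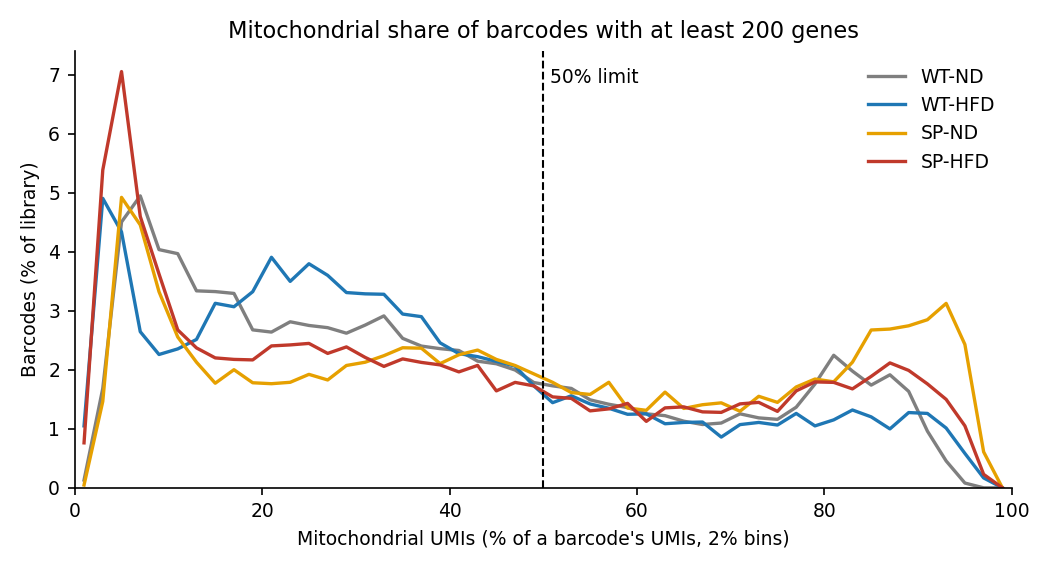
Mitochondrial UMIs as a percent of each barcode's UMIs (x axis, 2% bins) against the percent of the library's barcodes with at least 200 genes (y axis), with 1 line per library and a dashed line at 50%. Members lie to the right of the dashed line, and their share runs from 27.0% of barcodes (WT-HFD) to 44.2% (SP-ND).

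Members were not empty of UMIs. Their median total was 4608, 6729.5, 7611 and 6740 UMIs, above the medians of the other barcodes in each library (3907, 5103, 6088 and 5035.5). Their non-mitochondrial UMIs were fewer, with medians of 1106.5, 1631, 1345.5 and 1377 against 2888, 3803, 4513 and 3874.5. Accordingly the limit removed 14.4%, 12.7%, 21.2% and 16% of the non-mitochondrial UMIs, and between 51.7% (WT-HFD) and 67.4% (SP-ND) of the mitochondrial UMIs. Members with under 500 non-mitochondrial UMIs, in which a cell type is hard to read, made up 19.6%, 14.5%, 23.4% and 12.2% of members.

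Members also had fewer detected genes at equal depth. After each barcode was thinned to 250 non-mitochondrial UMIs, the median number of genes was 160 in members and 185 in others of WT-ND. In the remaining libraries it was 162 and 187, 166 and 194, and 163 and 194, and thinning left out 2 members in all. The 250 UMIs include those of Gm42418 and Malat1, abundant transcripts that took a larger share in members (described below). Members and others also hold different mixes of cells. The part of either in the gap was not tested. Without thinning, members had medians of 540, 745, 661 and 676 genes and others 1370, 1667, 1942 and 1699. Just inside the limit, the 883 members at 50% to 52% had a median of 3361 non-mitochondrial UMIs and 1542 genes, and the 971 barcodes just outside, at 48% to 50%, had 3654 UMIs and 1633 genes. PT-like barcodes (proximal tubule, by clustering) were 34.7% of the first and 34.5% of the second. The libraries differed in depth at the limit: SP-HFD had more non-mitochondrial UMIs inside (3315) than outside (3064.5), and the gap the other way was widest in WT-HFD, with 3016.5 inside against 3738 outside. Cluster 2, which could not be named, was 12.1% of barcodes inside and 6.75% outside in WT-HFD, but 8.41% inside and 11.9% outside in SP-ND.

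The 3 marker transcripts of the group, mt-Atp6, mt-Co1 and mt-Nd1, belong to the 13 messenger RNAs of the mitochondrial genome listed in the files, and the mitochondrial ribosomal RNAs are not listed. In the GRCm38 assembly they lie at chrM:7927-8607 (mt-Atp6, an ATP synthase subunit), chrM:5328-6872 (mt-Co1, the catalytic subunit of cytochrome c oxidase) and chrM:2751-3707 (mt-Nd1, a complex I subunit), all exonic and on the plus strand. Within mitochondrial UMIs of members, mt-Atp6 made up 21.7%, 20.6%, 22.8% and 20.3%, against 20.8%, 19.9%, 21.4% and 19.3% in others. The share of mt-Co1 was 12.5%, 10.6%, 11.6% and 10.9% in members against 14.2%, 12.0%, 13.8% and 12.4%, and that of mt-Nd1 was 5.39%, 4.86%, 5.47% and 4.88% against 5.53%, 4.81%, 5.66% and 5.06%. The make-up of the mitochondrial RNA therefore differed little between members and others, with log2 ratios of shares from -0.26 for mt-Co1 in SP-ND to 0.31 for mt-Nd6 in SP-HFD. Between libraries the differences were larger. The share of mt-Cytb (chrM:14145-15288, the complex III subunit cytochrome b) in members was 10.4% in WT-ND and 10.1% in SP-ND but 13.4% in WT-HFD and 13.2% in SP-HFD. In the other barcodes it was likewise 10.2% in WT-ND and 9.59% in SP-ND but 14.1% in WT-HFD and 13.2% in SP-HFD. Low-abundance mt-Atp8 went the other way, at 0.482% in WT-ND and 0.411% in SP-ND against 0.266% in WT-HFD and 0.315% in SP-HFD of members.

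Which cells the members came from was read from their non-mitochondrial UMIs alone. All 54175 barcodes were clustered together on non-mitochondrial genes, which gave 30 clusters, and a cluster was named (as "X-like") where the mean log2 ratio of a marker list, the cluster over the rest, reached 1.5 and its 10 leading genes held no more markers of another class. Clusters 1, 4 and 6 were PT-like and clusters 13, 14 and 16 were TAL-like. Cluster 16 had 0 TAL markers among its 10 leading genes and takes its name from the list alone (mean log2 ratio 1.95). Cluster 0, the cluster with the most members, and cluster 2 could not be named. Cluster 0, with 7014 members, was led by Gm20594, hemoglobin genes, Lars2 and Gm26917 at a median of 622 non-mitochondrial UMIs. Cluster 2, with 2201 members, was led by hemoglobin genes and by Tmem207, Nccrp1, Ppp1r1b and Slc12a1, the last of which encodes the TAL salt transporter NKCC2. Cluster 9, led by Sycn, Hsd11b1, Ccl28 and Dnase1, also stayed unnamed. Its best list was that of S2 (the middle PT segment), at a mean log2 ratio of 0.59. It held 193, 1547, 104 and 58 barcodes, most of them in WT-HFD, and 34, 113, 34 and 19 of these were members. The best list of clusters 0 and 2 was that of red blood cells (mean log2 ratios 1.97 and 2.90), and both stayed unnamed because hemoglobin had to reach 10% of non-mitochondrial UMIs. Hemoglobin transcripts made up at most 0.0601% of those of cluster 0 members in any library (SP-ND).

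The largest named class among members was PT-like, with 5069 members. By clusters its share of members was 27.3%, 27.9%, 27.5% and 27.4%. With cluster 0 added it was 73.0%, 57.5%, 69.0% and 59.2%, and by the marker UMIs of single barcodes 64.7%, 39.1%, 24.0% and 33.2%, so the even share holds for the clusters alone. Cluster 0 made up 45.7%, 29.5%, 41.6% and 31.8% of members and cluster 2 8.54%, 14%, 11.5% and 14.9%. DCT-like barcodes (distal convoluted tubule) followed with 1092 members, TAL-like with 801, connecting tubule-like with 733 and intercalated cell-like with 490. Podocyte-, endothelial- and immune-like classes, called the classes outside the tubule from here on, together gave 546 members, 2.96% of all, against 9272 barcodes, or 25.9%, of the others. Mural- or fibroblast-like barcodes, with 89 members and 999 others, are not counted among them.

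Single barcodes were also classed by their own marker UMIs, without clusters, as the class whose markers stood highest over their mean share of all barcodes, from at least 3 UMIs. Of the cluster 0 members, 3441 of 7014 (49.1%) were PT by this count, 390 (5.56%) were TAL, and 2651 (37.8%) had too few marker UMIs or none above that mean. The PT value differed widely between libraries, at 81.9%, 55.1%, 18.1% and 41.6%, and the TAL value was highest in SP-ND (11.2%). This PT count sums the UMIs of all PT markers and sets them against a mean over libraries. In cluster 0 members the markers of all PT segments, among them the abundant Kap, made up 4.35%, 2.78%, 1.61% and 2.16% of non-mitochondrial UMIs. How far Kap sets the PT value was not tested. Of the cluster 2 members, 1894 of 2201 (86.1%) were TAL by this count. PT marker transcripts may also reach droplets of other cells as free RNA, so the level in barcodes of classes that should lack them is given beside. The S1 markers made up 0.421%, 0.400%, 0.378% and 0.457% of the non-mitochondrial UMIs of cluster 0 members. They made up 0.111%, 0.0646%, 0.0540% and 0.0357% in the others outside the tubule, and 0.854%, 0.946%, 0.813% and 0.892% in PT-like members. In the 546 members outside the tubule they made up 0.303%, 0.250%, 0.291% and 0.186%. Cluster 0 members thus lay below PT-like members and above both groups outside the tubule in all 4 libraries, with the smaller gap to the members outside the tubule. How much of these UMIs was free RNA was not tested. TAL markers made up 3.19%, 2.78%, 2.54% and 3.67% in cluster 2 members. This was far above the 0.159%, 0.195%, 0.170% and 0.134% in the others outside the tubule. It was also far above the 0.235%, 0.330%, 0.266% and 0.329% in the members outside the tubule.

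Within each class, the share at or above 50% differed by segment. In the PT-like class it was 34.4% (1365 of 3970, 32.9 to 35.9) and 41.4% (1034 of 2496, 39.5 to 43.4) in the WT libraries on ND and HFD. In the SP libraries it was 57.8% (1532 of 2650, 55.9 to 59.7) and 61.3% (1138 of 1856, 59.1 to 63.5). In both SP libraries the limit thus removed more PT-like barcodes than it kept, and without cluster 4 the shares were 27.0%, 28.4%, 48.1% and 49.5%, all under 50%. Of the cluster 4 members, 49.5% were PT by their own markers (77.3%, 50.9%, 27.1% and 46.8%), and 47.8% had too few marker UMIs or none above the mean (68.8% in SP-ND). These counts again sum all PT markers, Kap among them. The S1 markers alone made up 0.922%, 0.983%, 0.897% and 0.996% of the non-mitochondrial UMIs of cluster 4 members. With every barcode classed by its own markers, the PT shares were 44.4%, 39.8%, 55.5% and 63.0%. With cluster 9 added to the PT-like class they were 33.6%, 28.4%, 56.9% and 60.4%. WT-HFD was thus above WT-ND by clusters and below it in both of the other counts, whereas both SP libraries stayed above both WT libraries. In the TAL-like class it was 11.6%, 24.8%, 23.6% and 19.4%, in the DCT-like class 25.2%, 26.4%, 31.0% and 32.8%, and in connecting tubule-like barcodes 19.2%, 27.2%, 25.7% and 27.3%. Intercalated cell-like barcodes gave 19.4%, 13.5%, 19.3% and 18.3%. Endothelial-like barcodes gave only 4.22%, 4.66%, 7.21% and 5.66%, and podocyte-like ones 5.89%, 6.35%, 6.65% and 3.81%. Of 87 principal cell-like barcodes in WT-ND, 0 were members (Clopper-Pearson upper limit 4.15%). The PT-like and TAL-like values depend on the unnamed clusters: with cluster 0 added the PT-like share over all libraries was 58.9% in place of 46.2%, and with cluster 2 added the TAL-like share was 36.6% in place of 20.2%.

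**Figure D2:**
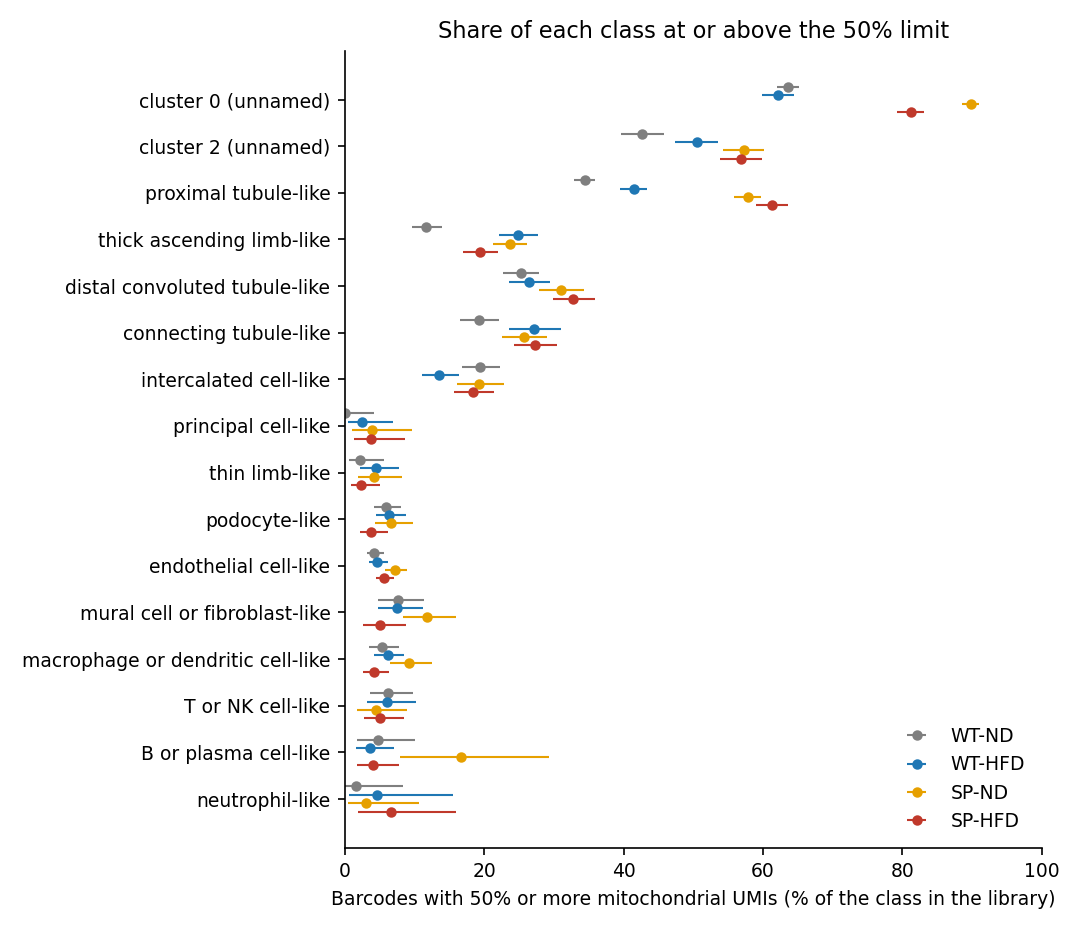
Percent of the barcodes of each class (rows) that had 50% or more mitochondrial UMIs (x axis), with 1 point per library and Clopper-Pearson 95% intervals as bars. The unnamed clusters 0 and 2 and the PT-like class hold the highest shares, up to 89.8% for cluster 0 in SP-ND, and podocyte-, endothelial- and macrophage-like classes stay under 10%.

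The PT-like clusters differed among themselves. Cluster 4, led by Slc34a3 and Gsta2 and also by Slc5a12, a marker of S1 (the first PT segment), had 71.2% at or above 50% over all libraries. Cluster 6, led by Ces1g, Slc5a12 and Slc5a2, had 37.9% (22.5%, 40.2%, 52.5% and 54.5%). Cluster 1, led by Slc7a13, a marker of S3 (the last PT segment), with Kap among its top genes, had 34.5% (29.8%, 23.2%, 45.6% and 47.1%). Cluster 6 was thus above cluster 1 except in WT-ND, where the order was reversed. As a result, cluster 4 held 2314 of the 5069 PT-like members, whereas cluster 1 held 3278 of the 5903 other PT-like barcodes, so members and others of the PT-like class are not the same mix of clusters. Cluster 4 was also the shallowest, with a median of 2071 non-mitochondrial UMIs against 4589 in cluster 1 and 5901 in cluster 6.

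The limit changed the apparent make-up of each kidney. PT-like barcodes were 24.8%, 18.2%, 21.0% and 15.7% of barcodes before it and 23.6%, 14.6%, 15.9% and 9.38% after it. With cluster 0 counted in, the values before were 47.2%, 31.0%, 41.4% and 29.5%, and those after 35.5%, 21.2%, 19.6% and 13.4%. With cluster 9 in place of cluster 0, the values after were 25.1%, 28.9%, 16.8% and 9.89%, so that WT-HFD rather than WT-ND had the largest PT-like share. Barcodes outside the tubule made up a larger share after the limit in every library, from 16.1% to 22.3%, 18.3% to 23.7%, 16.3% to 27.0% and 22.6% to 33.2%. Endothelial-like barcodes alone went from 6.66% to 9.27%, 7.04% to 9.19%, 8.13% to 13.5% and 10.5% to 15.2%.

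The rule weighs mitochondrial against all UMIs, so the size of each pool in PT-like barcodes is given as a description of the choice. The median of mitochondrial UMIs was 4562 against 2726, 8576.5 against 2365, 7859.5 against 5093.5 and 6958 against 3395. The median of non-mitochondrial UMIs was 2380 against 5218, 3277.5 against 5727.5, 3294 against 8055 and 2401.5 against 7096.5. Among all barcodes in 10% bins, the median of mitochondrial UMIs went from 178.5 under 10% to 3288 in the bin from 40% to 50%, lay between 3698 and 4488 in the bins from 50% to 90%, and was 6679.5 at 90% or more. That of non-mitochondrial UMIs was 3162 under 10%, had its highest value of 4615.5 in the bin from 30% to 40%, and was 455 at 90% or more.

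The segment signatures of members were compared with those of the other barcodes as CPM of non-mitochondrial UMIs, with a gene called higher or lower when its log2 ratio reached 1 in size with the same sign in all 4 libraries. Of 7948 genes with at least 20 CPM, 45 were higher (0.566%) and 707 lower (8.9%). Since the rule used this contrast, the counts are descriptive. The median gene lay at -0.27, -0.17, -0.23 and -0.17. With all UMIs in place of non-mitochondrial UMIs as the denominator, 0 genes were higher and 5163 lower. Without WT-ND, 112 were higher and 750 lower. With Gm42418, AY036118, Gm26917 and Malat1 (described below) left out of the denominator, 191 were higher and 518 lower.

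PT lists lay above that median in every library. The 8 PT markers of all segments had median log2 ratios of 0.45, 0.71, 1.14 and 1.57, and 7 of the 8 were above 0 in all 4. The exception was Kap, the abundant androgen-responsive kidney protein, at -0.18, -0.28, 0.26 and 0.50. The 7 S1 markers had medians of 0.67, 0.88, 1.26 and 1.64, and all 7 were above 0 in every library. Slc34a1, the phosphate transporter NaPi-IIa, stood at 2822, 2931, 2191 and 2318 CPM in members against 1777, 1647, 916 and 749 CPM in others. Slc5a12, a lactate transporter of S1, was the 1 PT marker called higher, at 322, 211, 240 and 234 CPM against 137, 65.0, 58.2 and 35.1 CPM. The 4 S2 markers, among them the organic anion transporters Slc22a6 and Slc22a8, had medians of 0.43, 0.66, 1.21 and 1.44. Of the 7 S3 markers, 4 reached 20 CPM, with medians of 0.40, 0.56, 0.91 and 1.45. In all these lists the ratio was larger in the SP libraries than in the WT libraries, and the level in the other barcodes was lower there: all PT lists together made up 4.76%, 3.76%, 1.59% and 1.78% of the non-mitochondrial UMIs of others and 4.89%, 3.95%, 2.69% and 3.30% of those of members. Slc34a1, for instance, differed less between libraries in members than in others.

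TAL and DCT lists lay near 0. Umod, encoding uromodulin, the main protein of normal urine, stood at 1972, 3371, 2496 and 4211 CPM in members against 2357, 3403, 3171 and 4139 CPM in others. Slc12a1 stood at 923, 1028, 1423 and 1465 CPM against 954, 773, 1520 and 1083 CPM. In both genes members and others overlapped across libraries, and the 8 TAL markers had medians of -0.21, 0.05, -0.22 and 0.06. The 7 DCT markers had medians of -0.18, -0.04, -0.39 and 0.13. None of the 15 was called in either direction.

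The marker lists of other cells are given as sums over all genes of each list, since a gene that reached 20 CPM only in the group where its cells lie had to differ. The 4 connecting tubule markers made up 0.357%, 0.207%, 0.323% and 0.218% of the non-mitochondrial UMIs of members against 0.483%, 0.204%, 0.621% and 0.258% in others, so members were not lower in every library. The 6 principal cell markers made up 0.0406%, 0.0430%, 0.0407% and 0.0479% against 0.185%, 0.175%, 0.267% and 0.219%. Aqp2, the water channel regulated by vasopressin, stood at 97.6, 151, 119 and 150 CPM in members against 562, 773, 1018 and 828 CPM. The 8 intercalated cell markers (cells that handle acid and base) summed to 0.0408%, 0.0428%, 0.0336% and 0.0489% against 0.118%, 0.133%, 0.125% and 0.171%. In these lists members lay below others in all 4 libraries. Of the single genes, 5 of the 6 principal cell markers, 6 of the 8 of intercalated cells and 4 of the 5 of the thin limb were called lower, beside 8.9% of all genes. Such genes could pass 20 CPM through the others alone and then had to be lower, so nothing is drawn from these counts.

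For cells other than tubule epithelium, the 8 podocyte markers (the most abundant being Podxl) made up 0.0272%, 0.0200%, 0.0208% and 0.0217% in members against 0.144%, 0.126%, 0.187% and 0.145% in others. The 9 endothelial markers, led by Emcn, made up 0.0117%, 0.0205%, 0.0183% and 0.0310% against 0.0864%, 0.0969%, 0.0951% and 0.131%. The 9 markers of macrophages or dendritic cells, led by Cd74, made up 0.0201%, 0.0338%, 0.0383% and 0.0293% against 0.0769%, 0.156%, 0.137% and 0.236%. Members were below others in each of these sums. The 10 markers of mural cells or fibroblasts made up 0.0153%, 0.0105%, 0.0195% and 0.0192% against 0.0732%, 0.105%, 0.113% and 0.0836%, and the 7 of B or plasma cells 0.00405%, 0.0197%, 0.00158% and 0.0162% against 0.0432%, 0.238%, 0.00528% and 0.393%. The markers of neutrophils and of T or NK cells were at most 0.00288% in members (neutrophils, SP-ND), and none of the 10 T or NK cell markers or the 3 urothelial markers reached 20 CPM on either side.

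**Figure D3:**
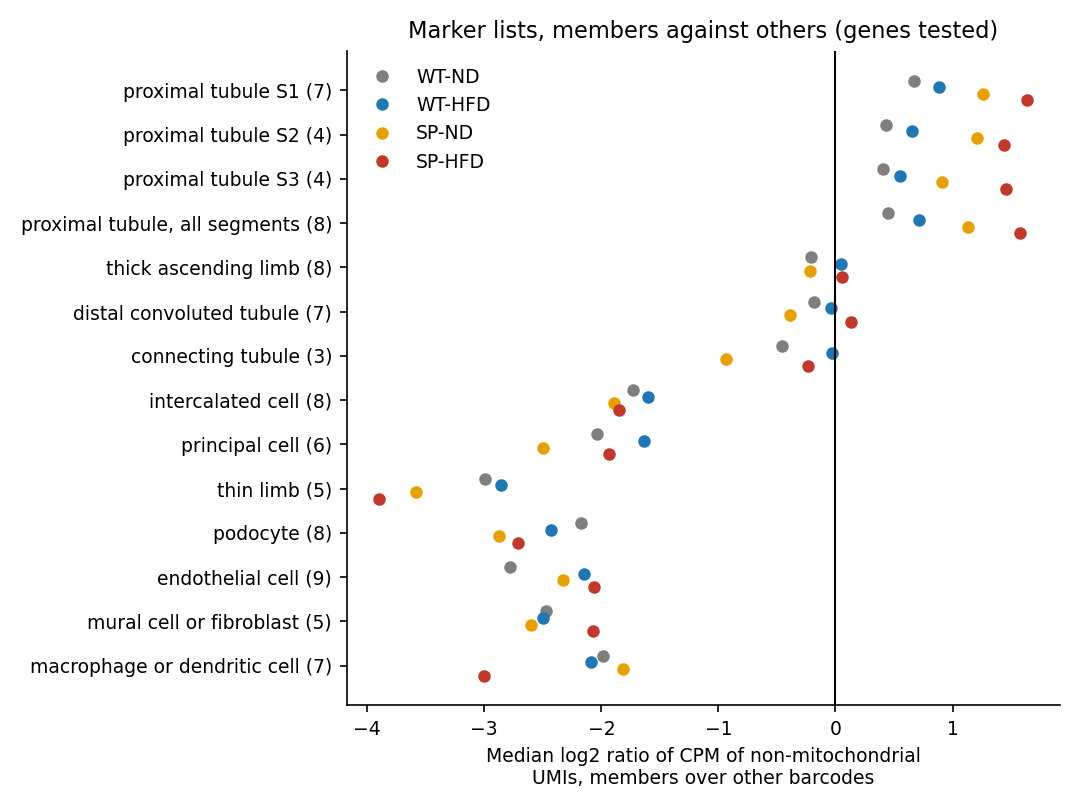
Median log2 ratio of CPM of non-mitochondrial UMIs, members over other barcodes (x axis), for each marker list (rows, with the number of its genes that reached 20 CPM), with 1 point per library. PT lists sit between 0.40 and 1.64, and TAL and DCT lists around 0. The podocyte, endothelial and macrophage lists lie below -1 in every library. Their genes could pass 20 CPM through the others alone, so nothing is drawn from this sign, and sums are given in the text.

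Beyond segment markers, Gm42418, Gm26917 and Lars2 were called higher in members, and the related transcript AY036118 and nuclear Malat1 are given beside them. Gm42418 (chr17:39846958-39848788, plus strand, a long noncoding RNA gene known to overlap ribosomal RNA sequence) made up 21.2%, 18.5%, 17.8% and 15.6% of the non-mitochondrial UMIs of members. In the other barcodes it made up 7.61%, 7.05%, 6.28% and 4.91%. AY036118 (chr17:39847113-39848035, minus strand) lies wholly within it on the opposite strand. Its 923 bases match the reverse complement of the 1831-base Gm42418 transcript exactly, at positions 754 to 1676 of that complement. Reads from that stretch can be told apart only by strand. AY036118 stood at 4756, 1859, 2786 and 1603 CPM in members against 2554, 1146, 1595 and 1002 CPM, and was not called. Neighbouring Gm26917 (chr17:39843013-39846341, plus strand) stood at 1251, 1125, 857 and 1131 CPM in members against 330, 285, 204 and 211 CPM. Lars2 (chr9:123366927-123462666, plus strand), which encodes the mitochondrial leucyl-tRNA synthetase, stood at 7562, 8564, 6953 and 8067 CPM against 1920, 1990, 1525 and 1314 CPM. The log2 ratio of Lars2 was 1.98, 2.1, 2.19 and 2.62. Its transcript shares a run of 52 identical bases with Gm15564 (chr16:35966752-35983230, minus strand, also singled out after its values were seen), at log2 ratios of 1.86, 1.54, 1.95 and 1.66. Malat1 (chr19:5795690-5802672, minus strand), a long RNA kept in the nucleus, made up 6.74%, 7.15%, 6.69% and 8.23% in members against 3.89%, 3.20%, 3.62% and 3.12%. Its log2 ratios of 0.79, 1.16, 0.89 and 1.40 did not meet the call. Within cluster 0, however, Malat1 was lower in members, at log2 ratios of -0.62, -0.04, -0.41 and -0.96, and Gm26917 had mixed signs (-0.05, 0.24, -0.43 and -0.90). AY036118 was lower there in 3 of 4 libraries (-0.29, 0.04, -0.30 and -0.17). Lars2 and Gm42418 were higher there too, at 1.92, 2.21, 2.13 and 2.33 and at 1.09, 1.34, 1.21 and 1.43.

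A further transcript among those higher in members carries a copy of mitochondrial sequence. Gm20594 (chr6:79817916-79818364, plus strand, annotated as protein coding) was singled out after its values were seen. It stood at 38.6, 16.8, 37.0 and 17.6 CPM in members and 4.89, 3.11, 4.16 and 3.20 CPM in others, with log2 ratios of 2.75, 2.11, 2.88 and 2.15. Its transcript aligns to mt-Rnr2, the mitochondrial 16S ribosomal RNA (chrM:1094-2675), over 435 aligned positions at 88.5% identity. The longest identical run, at positions 368 to 432 of the Gm20594 transcript and 1009 to 1073 of mt-Rnr2, is 65 bases long and is shown because the 2 transcripts cannot be told apart within it.
Gm20594 and mt-Rnr2, shared run: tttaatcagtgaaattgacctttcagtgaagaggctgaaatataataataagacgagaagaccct
Since mt-Rnr2 is not among the listed genes, its UMIs are not in the mitochondrial share, and how many of the Gm20594 UMIs came from it was not tested.

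Gm42418 and Malat1 were also followed along the mitochondrial share. In the plot by mitochondrial bin, Gm42418 went from 5.65%, 4.40%, 4.67% and 3.81% of non-mitochondrial UMIs in barcodes under 10% to 25.4%, 32.6%, 28.6% and 27.3% in the bin from 80% to 90%. Malat1 had a peak: it was 8.40%, 10.2%, 9.05% and 10.9% in the bin from 70% to 80% and 2.22%, 3.37%, 3.70% and 5.46% at 90% or more. The nucleus-retained RNA thus declined again in the barcodes with the highest mitochondrial share, in all 4 libraries. The 52 nuclear-encoded genes of the respiratory chain and ATP synthase were highest between 20% and 40%, up to 6.16% in SP-HFD. They were between 2.33% (WT-HFD) and 2.44% (SP-HFD) in the bin from 70% to 80%. The list thus declined between 40% and 80% in all 4 libraries, and it was 3.42%, 3.04%, 3.25% and 2.64% at 90% or more. The bins do not hold the same mix of cells. Over all libraries, classes outside the tubule were 64.4% of barcodes under 10%. Cluster 0 was 33.6% of those from 70% to 80% and 85.9% at 90% or more. The part of this mix in the curves was not tested.

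**Figure D4:**
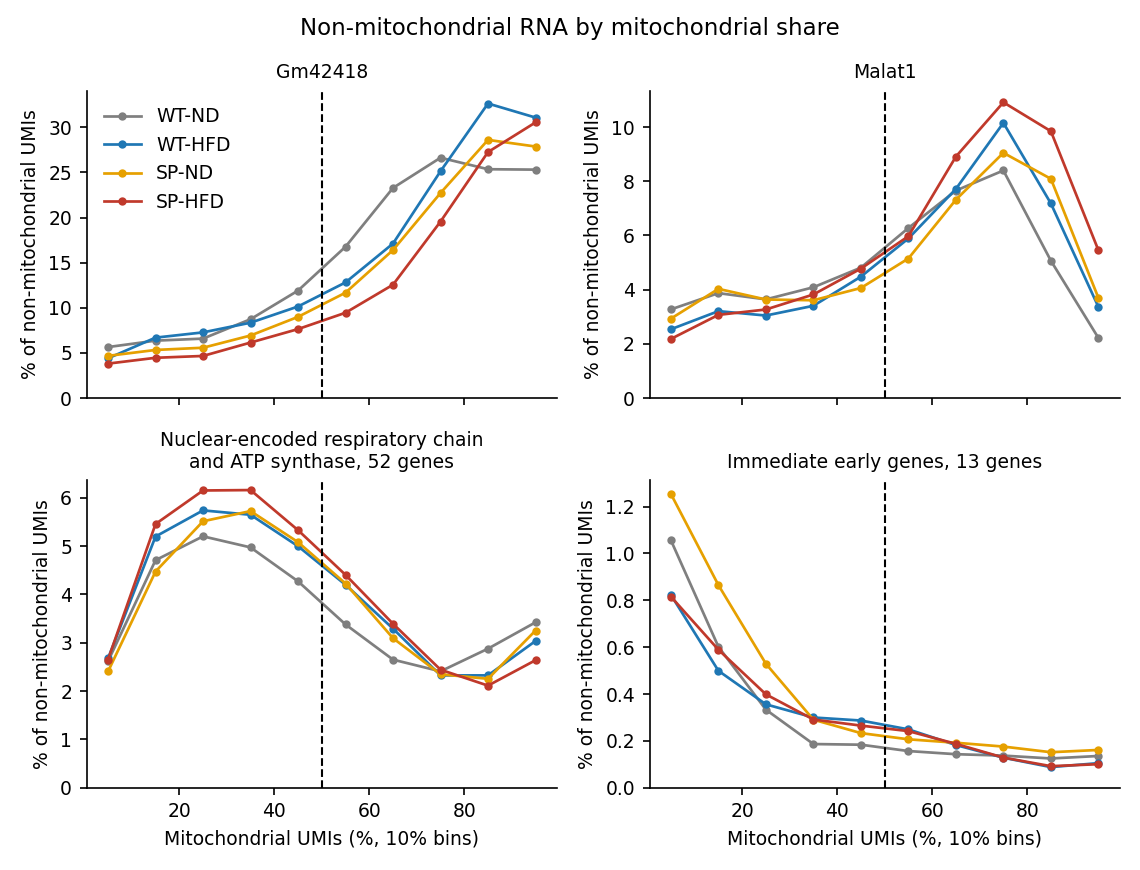
Percent of non-mitochondrial UMIs (y axes) taken by Gm42418, by Malat1, by 52 nuclear-encoded respiratory chain and ATP synthase genes and by 13 immediate early genes, in barcodes grouped by mitochondrial share (x axes, 10% bins), with 1 line per library and a dashed line at 50%. Gm42418 climbs to 25.4% to 32.6% in the bin from 80% to 90%, and Malat1 has its peak in the bin from 70% to 80%. The bins differ in their mix of cell classes.

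Lists of cell state held no gene called higher in members. Over all barcodes, 12 of 13 immediate early genes, which are switched on within minutes of tissue handling, were called lower, with medians of -1.71, -1.28, -1.85 and -1.68. Fos stood at 152, 182, 156 and 157 CPM in members against 625, 575, 772 and 645 CPM. Of 8 tubular injury genes with at least 20 CPM, 3 were lower and none higher, and of 8 p53 and apoptosis genes 2 were lower and none higher, beside 8.9% lower and 0.566% higher among all genes. Havcr1, encoding the injury marker KIM-1, stood at 2.99, 1.25, 2.04 and 2.00 CPM in members and did not reach 20 CPM on either side. Of the 9 heat shock and chaperone genes, 4 were lower. The 7 mitochondrial chaperones and proteases had medians of -0.03, 0.04, 0.13 and 0.16, with none called. Of 6 genes of mitochondrial genome expression with at least 20 CPM and 13 of the citrate cycle, none was called. These lists compare different mixes of cells, and within the PT-like class the immediate early genes had medians of 0.52, 0.13, 0.22 and 0.12, with none of 11 called.

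Members and others were also compared within the PT-like class, whose mix of clusters differs between the 2 sides. Of 6810 genes, 11 were higher in members (0.162%) and 25 lower (0.367%). When Gm42418, AY036118, Gm26917 and Malat1 were left out of the denominator, 65 were higher and 1 lower, which moved the mean over libraries of the median gene from 0.06 to 0.32. The balance of higher to lower calls moved with the clusters as well, with 23 higher and 13 lower in cluster 1 alone, 6 and 112 in cluster 4 and 0 and 1 in cluster 6. Lars2 ranked first, at 7151, 8188, 6357 and 6834 CPM in members against 2377, 1644, 1835 and 1360 CPM in others, with log2 ratios of 1.59, 2.32, 1.79 and 2.33. Gm26917 (1.53, 1.74, 1.39 and 1.75) and Gm42418 (1.26, 1.71, 1.23 and 1.78) followed. Next came Col27a1, a fibrillar collagen gene, at 119, 538, 161 and 700 CPM against 55.9, 196, 65.8 and 208 CPM, and Kcnq1ot1, a long noncoding RNA kept at its own locus in the nucleus, at log2 ratios of 1.16, 1.56, 1.00 and 1.69. The rest of the 10 highest were Myo9a, Ccnl1, Snx29, E130102H24Rik and Mlxipl, with ratios nearest 0 between 0.87 and 0.94, so that none of these 5, nor Kcnq1ot1 in SP-ND (just under the threshold), met the call in every library. Malat1 stood at 7.66%, 9.41%, 7.58% and 10.5% in PT-like members against 4.20%, 3.64%, 3.87% and 3.91%.

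The 10 lowest genes of the PT-like class were Rpl10 and Rpl9 (ribosomal proteins), Cox5a and Ndufa4 (respiratory chain), Tomm5 (mitochondrial import), Ost4 and Spcs1 (processing of secreted proteins in the endoplasmic reticulum), Txn1 (thioredoxin), Grcc10 and Kap. Ndufa4 stood at 982, 894, 972 and 762 CPM in members against 2179, 2655, 2272 and 2404 CPM, with log2 ratios of -1.15, -1.57, -1.22 and -1.66. Rpl10 had ratios of -1.25, -1.69, -1.31 and -1.64. Kap stood at 37920, 31882, 15591 and 30760 CPM in members against 80589, 74109, 33074 and 68429 CPM, or -1.09, -1.22, -1.08 and -1.15. In these 3 genes members lay below others in every library. Kap depended on the cluster: it was lower in members of cluster 1 (-0.98, -0.65, -0.79 and -0.68) and of cluster 6 (-0.41, -0.43, -0.49 and -0.51), but higher in members of cluster 4 (0.53, 0.65, 1.33 and 0.49).

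Whole lists showed the same groups in the PT-like class. All 83 measured cytosolic ribosomal protein genes were below 0 in all 4 libraries, with medians of -0.70, -0.90, -0.73 and -0.86 beside 0.02, 0.09, 0.04 and 0.09 for all genes. Of these 83, 2 were called lower, beside 0.367% of all genes. Of the 52 nuclear-encoded respiratory chain and ATP synthase genes, 51 were below 0 in all 4 libraries, with medians of -0.71, -0.88, -0.71 and -0.87. Of these 52, 4 were called lower, beside 0.367% of all genes. With Gm42418, AY036118, Gm26917 and Malat1 left out of the denominator, 1 gene of the whole class was called lower. All 7 mitochondrial chaperones and proteases were below 0 in every library, with medians of -0.33, -0.35, -0.29 and -0.51. The S1 markers stayed above 0 in 6 of 7 cases (medians 0.25, 0.30, 0.11 and 0.19), and the S3 markers had medians of -0.27, -0.39, -0.33 and -0.04, beside the different mix of clusters. Slc5a2, the mutated gene, stood at 697, 753, 242 and 453 CPM in PT-like members and at 464, 333, 92.7 and 139 CPM in the others, higher in members in all 4 libraries. Slc5a2 is an S1 marker, and the part of the cluster mix in this difference was not tested. Since the mutation is a missense change, the transcript level does not check the genotype labels.

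**Figure D5:**
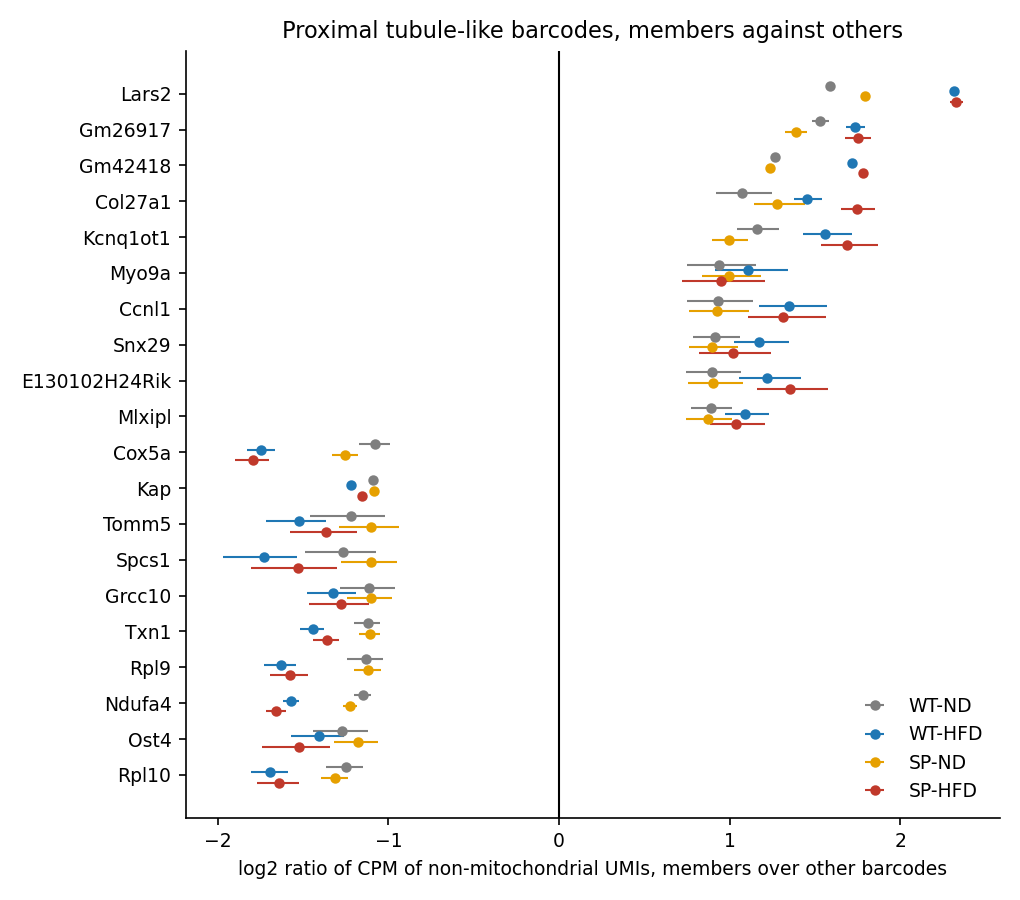
Log2 ratio of CPM of non-mitochondrial UMIs, members over others, in PT-like barcodes (x axis) for the 10 highest and 10 lowest genes (rows), with 1 point per library and exact conditional binomial 95% intervals as bars. Lars2, Gm26917 and Gm42418 lie between 1.23 and 2.33, and the 10 lowest lie between -1.08 and -1.80 in all 4 libraries.

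Within the TAL-like class, 3 of 7813 genes were higher in members (0.0384%) and 9 lower (0.115%). With cluster 2 added, 30 were higher and 12 lower. Several of the 10 highest were PT genes, such as Slc34a1 at 383, 176, 174 and 123 CPM in members against 189, 95, 65.9 and 55.4 CPM in others. Slc27a2, Acsm2 and Gpx3 were among them as well, and 19 of 22 measured PT markers were above 0 in all 4 libraries. The summed PT markers made up 0.849%, 0.399%, 0.258% and 0.267% of non-mitochondrial UMIs in TAL-like members. In the TAL-like others they made up less in every library, at 0.544%, 0.217%, 0.119% and 0.157%. Without scored doublets the mean log2 ratio of Slc34a1 over libraries was 0.81, and 0 genes were called higher. The part of doublets and of free RNA in these UMIs was not tested further. Among the 10 lowest were Ptgs2 and Pappa2, markers of the macula densa, the salt-sensing patch at the end of the TAL. Ptgs2 stood at 0, 1.24, 7.57 and 0 CPM in members against 34.7, 186, 36.3 and 140 CPM in others, and Pappa2 at 34.3, 9.93, 2.52 and 2.95 CPM against 129, 112, 26.0 and 26.4 CPM. Cluster 13, which these genes lead, had 12.7% at or above 50%, against 22.2% in cluster 14 and 28.2% in cluster 16, so members and others of the TAL-like class also differ in their mix. Clu, Aebp1, Ly6e, Apoe, Cd9, Klk1, Car15 and Mgst1 completed the lowest 10. The nuclear-encoded respiratory chain list lay near 0 here, with medians of -0.02, -0.15, -0.08 and -0.09. In cluster 2, most of whose members were TAL by their own markers, its medians were -0.39, -0.40, -0.57 and -0.55. In the TAL-like class Gm42418 had log2 ratios of 0.42, 0.85, 0.48 and 0.73.

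The libraries were also compared with each other in the RNA that the limit discards. In PT-like members, WT-HFD against WT-ND had 144 of 6097 genes past a log2 ratio of 1 in either direction (2.36%), and SP-HFD against SP-ND 308 of 6425 (4.79%). SP-ND against WT-ND had 92 of 6205 (1.48%), and SP-HFD against WT-HFD 16 of 6176 (0.259%), all of them higher in SP-HFD. These 4 comparisons share libraries, and whether the diet difference depends on genotype could not be tested.

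Pck1, the rate-limiting enzyme of gluconeogenesis, stood at 1031, 6309, 1290 and 8762 CPM, so that both HFD libraries lay above both ND libraries. Car3, a carbonic anhydrase, stood at 7.49, 240, 4.03 and 318 CPM, and Ccl28, a chemokine, at 52.4, 268, 7.19 and 304 CPM. Both were again high on HFD. Fabp1, which binds fatty acids, went the other way at 399, 61.3, 3700 and 78.8 CPM. Cyp4a14, which hydroxylates fatty acids and like Fabp1 is a known target of the receptor PPARα, stood at 17.9, 0.733, 537 and 0 CPM. The SP-ND library therefore stood apart from WT-ND in Fabp1 and Cyp4a14, and the other PT-like barcodes had the same signs, with log2 ratios of 2.91 for Fabp1 and 4.71 for Cyp4a14 in SP-ND against WT-ND.

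Slc5a2 was lower in SP than in WT on both diets, at a log2 ratio of -1.52 (-1.62 to -1.43) on ND and -0.73 (-0.82 to -0.64) on HFD in PT-like members. In the other PT-like barcodes these ratios were -2.31 and -1.25. Kap was lower in SP-ND than in WT-ND as well, at 15591 against 37920 CPM (log2 ratio -1.28). Igha and Igkc, antibody genes of plasma cells, were among the largest ratios of SP-HFD against SP-ND, at 216 against 2.1 CPM and 277 against 5.96 CPM. The same genes stood at 17498 against 225 CPM and 58138 against 983 CPM in the others outside the tubule of these libraries. The part of free RNA in their level in PT-like members was not tested.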

How the data were processed

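The authors ran Cell Ranger and deposited UMI counts per gene and barcode for 4 droplet libraries (10x 3′ chemistry), without normalization. The submitters' processing notes name Cell Ranger 2.1.1 and the build mm10, the file headers name version 6.1.2, and the methods name another version. Depth was 93142028 and 115117649 UMIs for WT on ND and HFD and 111617794 and 90728590 for SP, with at least 500 UMIs per barcode and 32285 genes. Coordinates and transcripts are from GENCODE M21 (GRCm38).

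The mitochondrial share counts 13 genes. Barcodes with at least 200 genes were log-normalized on non-mitochondrial UMIs, anchored across libraries by canonical correlation (2000 variable features, 50 dimensions), and grouped with R 4.3.3 and Seurat 5.3.0 at a resolution of 0.5. Doublets were kept. Those scored against simulated doublets (0.8% per 1000 barcodes) were left out in an alternative. A cluster took a class name where the mean log2 ratio of its markers reached 1.5 over 3 or more detected markers and its top 10 genes held no more markers of another class. Shallow clusters also needed a marker among these genes. A cluster was called erythroid only at 10% globin or more. The thresholds were chosen with the clusters in view. The members and lists were chosen with earlier results of these data known.

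Levels are CPM of pooled non-mitochondrial UMIs, with 1 CPM added for ratios, and genes needed 20 CPM on 1 side in 1 library. Intervals are exact. Named genes were the marker and list genes, the mitochondrial genes, Slc5a2, in each class the 10 highest and 10 lowest ratios (ranked by the library nearest 0, same sign in all 4, at least 100 CPM), and the 5 largest and 5 smallest between libraries. The calling step was tested on simulated data for members against others over all classes: with 7728 genes, 100% of 200 genes changed by 4-fold were recovered, with 0 false calls, and 95.8% of intervals held the true ratio. The simulated counts had Poisson error only, with no variation between barcodes, clusters or mice. They therefore check the arithmetic of the step and give no error rate for these data. Intervals and sums used scipy 1.17.1 and pandas 2.3.3 under Python 3.11.15, and transcripts were aligned with BLAST 2.17.0. Of 264 list genes, 1 (Fastkd4) was not among the listed genes. Alternatives are listed in the closing section.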

Additional observations from a re-analysis of the deposited data

Results flagged for a closer look

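The share of TAL-like barcodes at or above 50% went in opposite directions with diet in the 2 genotypes, 13.2 percentage points higher in WT-HFD than in WT-ND and -4.26 points in SP-HFD against SP-ND. The SP intervals overlapped (21.2% to 26.2% and 16.9% to 22.0%). With cluster 2 added, the shares were 28.2% and 38.2% in WT-ND and WT-HFD and 40.0% and 39.0% in SP-ND and SP-HFD. Opposite signs, WT first, were also seen in macrophage- or dendritic cell-like (0.867 and -5.01 points), podocyte-like (0.460 and -2.84), endothelial-like (0.446 and -1.54), thin limb-like (2.18 and -1.92), principal cell-like (2.44 and -0.0956) and T or NK cell-like barcodes (-0.160 and 0.636). In macrophage- or dendritic cell-like barcodes the SP intervals did not overlap (6.53% to 12.5% and 2.65% to 6.29%), and in the other 5 classes they overlapped in both genotypes. With 1 library per condition none of these differences was tested. Barcodes under 200 genes, which enter no comparison other than the share with no minimum of genes, numbered 363, 1285, 1413 and 1424 (WT-ND first, SP-HFD last), with median mitochondrial shares of 87.6%, 88.5%, 89.9% and 91.3%. Gm42418 made up 35.5%, 42.4%, 36.3% and 46.4% of their non-mitochondrial UMIs, above its share in members of each library, and Malat1 made up 1.83%, 1.61%, 1.72% and 1.6%, below its share in members.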

How the results depend on the processing

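Each alternative changed 1 choice and kept the rest, except that members at 70% or more against others under 30% moved both limits. Members were 34.0% of barcodes, and 56.8% with a limit of 30%, 20.4% with 70%, 25.9% from 500 genes up, 36.7% from 1000 UMIs up, 34.6% up to 5000 genes and 39.1% with no minimum of genes. The PT-like share at or above the limit, 46.2%, was 48.2% without integration, 47.6% at a resolution of 1, 76.8% and 19.3% at limits of 30% and 70%, 47.3% without scored doublets, 47.7% by own markers, 35.7% without cluster 4, 58.9% with cluster 0 and 40.9% with cluster 9. Under the limit, PT-like barcodes made up 16.5%, and in the same order 18.0%, 14.9%, 10.9%, 20.5%, 15.9%, 22.7%, 13.9%, 23.6% and 21.3%, and 17.1% from 500 non-mitochondrial UMIs up. The TAL-like share, 20.2%, was 72.2% and 2.85% at limits of 30% and 70%, 18.7% without doublets, 38.6% by own markers and 36.6% with cluster 2.

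Over all barcodes 45 genes were higher and 707 lower. Higher genes numbered 0 over all UMIs, 16 by the mean over barcodes, 14 from 100 CPM up, 27 with 5 CPM added, 200 for members at 70% against others under 30% and 191 without the 4 transcripts. Lower genes numbered 5163 over all UMIs, 1239 from 5 CPM up, 229 from 100 CPM up and 1512 at 70% against 30%. In the PT-like class the 11 higher genes became 0 over all UMIs, 7 by the mean, 4 from 100 CPM up, 250 at 70% against 30%, 65 without the 4 transcripts, and 23, 6 and 0 in clusters 1, 4 and 6 alone. Its 25 lower genes became 1974, 15 by the mean, 15 with 5 CPM added, 415, 47 without doublets, 1, and 13, 112 and 1. In the TAL-like class the 3 higher genes became 0 over all UMIs, from 100 CPM up, with 5 CPM added and without doublets, 7 with 0.1 CPM added, 37 at 70% against 30%, 7 without the 4 transcripts and 30 with cluster 2. Its 9 lower genes became 168, 25 from 5 CPM up, 4 from 100 CPM up, 100 and 19 without doublets. Leaving out 1 library at a time gave 45 to 112 and 661 to 777 genes over all barcodes, 11 to 17 and 26 to 57 in PT-like, and 5 to 13 and 8 to 16 in TAL-like barcodes. Without WT-ND there were 112 higher genes over all barcodes, and 17 higher and 57 lower in PT-like barcodes. Without SP-ND 38 were lower in PT-like and 16 in TAL-like barcodes, and without WT-HFD 13 were higher in TAL-like barcodes. Between libraries, a limit of 70% gave 416 genes for WT-HFD against WT-ND, 289 for SP-ND against WT-ND and 98 for SP-HFD against WT-HFD, the last being 27 by the mean over barcodes. Kap was reversed in cluster 4 alone, with a mean log2 ratio of 0.75. The causes were not tested. The alternatives with no minimum of genes, with 4 transcripts left out, with clusters added or taken out and with single clusters were chosen after seeing the data. No paired test of members against others within libraries was made, since members were chosen on that contrast. Cluster 0 had a median of 622 non-mitochondrial UMIs, and the part of depth in its lack of a name was not tested.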
